A study of Mus musculus with 12 samples.

Results

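Newly made RNA of mouse bone marrow derived macrophages after 270 min of lipopolysaccharide (LPS) was compared with newly made RNA of unstimulated macrophages. The members are the 2 nascent RNA arrays of the 270 min cultures and the 2 nascent RNA arrays of the unstimulated cultures, 4 of the 12 arrays of the study, chosen by their titles and paired by experiment number. On these arrays 19938 genes were tested, each represented by 1 probe set. The macrophages were grown from C3H/HeN bone marrow with IL-3, IL-6 and SCF beside L-cell conditioned medium (a source of the growth factor M-CSF), and finished their differentiation in the conditioned medium alone. The stimulated cultures received 100 ng/ml of E. coli LPS. Every culture, unstimulated ones included, was given 200 µM 4-thiouridine (4sU) for the last 35 min, so an array of nascent RNA reads the transcripts made in that window. The other 8 arrays hold nascent RNA at 45 min and the total RNA of all cultures, and enter the fit that gives the standard errors and p-values. Fitted on the 4 arrays alone, the comparison called 2477 genes higher and 3087 lower in place of the 2163 and 3396 reported here. The cultures came from 2 independent experiments, and the labels give no age, sex or number of the mice. As input, 100 ng of nascent or 200 ng of total RNA was taken per array.

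LPS is a cell wall component of Gram-negative bacteria that macrophages detect through Toll-like receptor 4 with its partner Ly96 and the co-receptor Cd14. Adaptor proteins then switch on the transcription factors NF-kB, AP-1 and the interferon regulatory factors (IRF), and secreted type I interferon in turn acts through Janus kinases and STAT factors on a later set of antiviral genes. 4sU is built into RNA in place of uridine, and its sulphur atom lets the labelled molecules be biotinylated and pulled out of total RNA, so that a change in synthesis can be seen apart from RNA that was already there.

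Sequences of members described below are given first. Among microRNA genes, the entry of miR-155 had the largest rise of those above background in at least 1 group, followed by miR-222, miR-221, miR-146a and miR-674. The entry of miR-687 was among those that fell, and miR-23a, miR-27a and miR-24 are shown because their neighbouring entries fell together. Mature sequences are RefSeq's (GRCm38.p6), with the seed, bases 2 to 8, in capitals. The array probe sets read the microRNA gene's transcript and not the mature molecule shown.
mmu-miR-155-5p, chr16:84714143-84714165, plus strand: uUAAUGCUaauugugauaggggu
mmu-miR-222-3p, chrX:19146901-19146923, minus strand: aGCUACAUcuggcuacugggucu
mmu-miR-221-3p, chrX:19146307-19146329, minus strand: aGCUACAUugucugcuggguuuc
mmu-miR-146a-5p, chr11:43374435-43374456, minus strand: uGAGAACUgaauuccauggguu
mmu-miR-674-3p, chr2:117185186-117185207, plus strand: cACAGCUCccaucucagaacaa
mmu-let-7e-5p, chr17:17830366-17830387, plus strand: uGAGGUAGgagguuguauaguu
mmu-miR-687, chr14:73206808-73206829, minus strand: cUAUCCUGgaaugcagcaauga
mmu-miR-23a-3p, chr8:84208563-84208583, plus strand: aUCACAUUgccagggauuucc
mmu-miR-27a-3p, chr8:84208727-84208747, plus strand: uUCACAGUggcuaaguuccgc
mmu-miR-24-3p, chr8:84208875-84208896, plus strand: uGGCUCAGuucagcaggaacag
miR-221 and miR-222 share the seed GCUACAU and lie beside each other on chromosome X. The other printed seeds are all different.

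Promoters of the genes with the largest rises were searched because NF-kB and IRF sites are the known endpoints of LPS signalling. The window ran from 250 bases before to 50 bases after the RefSeq gene start (GRCm38.p6), and the letters searched on both strands were GGANTTTCC for NF-kB and GAAANNGAA for IRF. Of the 15 largest rises 11 had a window, and 7 of these 11 held a match to at least 1 of the motifs, 4 to NF-kB and 5 to IRF. The 250 bases before the start of 4 of them and, for AW112010 and Ifi205, the 29 bases around each match are shown on the gene's strand, with matches in capitals.
Il6, chr5:30012864-30013113, plus strand: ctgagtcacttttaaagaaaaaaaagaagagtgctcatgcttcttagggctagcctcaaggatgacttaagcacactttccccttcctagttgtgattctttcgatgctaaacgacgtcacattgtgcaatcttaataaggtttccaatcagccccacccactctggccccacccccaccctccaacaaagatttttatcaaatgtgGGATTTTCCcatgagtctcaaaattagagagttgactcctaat
Edn1, chr13:42301226-42301475, plus strand: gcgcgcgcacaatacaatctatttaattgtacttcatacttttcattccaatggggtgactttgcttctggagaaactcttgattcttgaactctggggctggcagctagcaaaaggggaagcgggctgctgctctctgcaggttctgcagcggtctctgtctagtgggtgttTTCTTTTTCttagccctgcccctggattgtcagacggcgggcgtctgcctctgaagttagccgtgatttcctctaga
Gbp5, chr3:142496684-142496933, plus strand: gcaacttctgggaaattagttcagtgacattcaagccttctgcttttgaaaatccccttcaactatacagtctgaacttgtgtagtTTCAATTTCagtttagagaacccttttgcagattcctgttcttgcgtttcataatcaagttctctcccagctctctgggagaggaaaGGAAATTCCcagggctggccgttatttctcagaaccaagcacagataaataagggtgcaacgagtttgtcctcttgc
Cxcl10, chr5:92348890-92349139, minus strand: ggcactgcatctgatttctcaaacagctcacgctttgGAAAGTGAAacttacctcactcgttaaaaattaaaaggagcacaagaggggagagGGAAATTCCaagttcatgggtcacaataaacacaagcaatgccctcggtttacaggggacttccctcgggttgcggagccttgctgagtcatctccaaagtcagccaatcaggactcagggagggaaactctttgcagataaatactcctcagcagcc
AW112010, chr19:11050618-11050646, minus strand: ttccaagcaaGGAATTTCCcaagtgggaa
Ifi205, chr1:174031871-174031899, minus strand: ccaggccaggGAAATTGAAagctatgaac
Ifi205, chr1:174031713-174031741, minus strand: taccccatttTTCACTTTCtcagttactg
The NF-kB match lay 43 bases before the start of Il6, 77 before that of Gbp5, 158 before that of Cxcl10 and 70 before that of AW112010. IRF matches lay 77 bases before the start of Edn1, 164 before that of Gbp5, 213 before that of Cxcl10, and 134 before and 24 after that of Ifi205. Over all 15562 tested genes with a window, 1.32% held the NF-kB letters and 7.93% the IRF letters. Among genes that rose (defined below) the shares were 2.34% and 12.7% of 1670 windows, and among genes that fell 0.998% and 5.7% of 2805. Of the 58 windows of genes that rose by at least 4 log2 units, 10 (17.2%) held the NF-kB letters and 22 (37.9%) the IRF letters. Rises of at least 3 log2 units had 111 windows, 12 (10.8%) with the NF-kB and 30 (27%) with the IRF letters. Falls of at least 3 log2 units had 83 windows, 0 with the NF-kB and 7 (8.43%) with the IRF letters. The AP-1 letters TGANTCA were in 6.97% of all windows, 24.1% of the 58, 18.9% of the 111 and 6.02% of the 83. The interferon gamma activated (GAS) letters TTCNNNGAA were in 7.85% of all windows, 8.62% of the 58, 10.8% of the 111 and 4.82% of the 83. For the PU.1 letters GAGGAAGT these shares were 2.74%, 3.45%, 2.7% and 6.02%. Matches of different motifs were counted separately and may overlap. These shares are descriptions without a test, and a match is not evidence of binding.

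The deposited values are RMA intensities, array brightness after background correction, scaling between arrays and summary over a probe set, and their log2 is called the level here. A difference is the mean level at 270 min minus the unstimulated mean, in log2 units, so that 1 unit is a 2-fold change, and is given ± its standard error (SE) from limma with n = 2 arrays per group. A gene is said to have risen or fallen only where the limma p-value, adjusted by Benjamini-Hochberg over all 19938 genes, was below 0.05. The table has no detection calls. The 95th percentile of 1027 olfactory receptor genes was therefore taken as background, 6.41 and 6.19 on the unstimulated arrays and 6.62 and 6.80 on the 270 min arrays. Where both arrays of the lower group were under it, the fold change is written as at least N-fold, and the fitted difference of such a gene does not measure its size. The interquartile range of levels was 2.64 and 3.00 log2 units on the unstimulated arrays and 2.30 and 2.25 on the 270 min arrays, and 93 of the 1027 olfactory receptor genes (9.06%) were called higher and 1 lower. That count of 93 was 58 without the replicate block, 40 under quantile scaling, 260 without the unstimulated array of experiment 1, 16 without that of experiment 2, and 31 and 22 without the 270 min array of experiment 1 and of experiment 2. Calls of small differences close to background therefore have this share of calls beside them.

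In nascent RNA at 270 min, 2163 genes (10.8% of those tested) were higher and 3396 (17%) lower than in unstimulated macrophages. By fitted size falls were more numerous at low limits and rises at high ones. By at least 1 log2 unit 907 genes rose and 1658 fell, and by at least 2 units 344 and 385. By at least 4 units 76 rose and 27 fell, and by at least 6 units 14 and 0. The 14 included Il6, Edn1, Gbp5, Mir155 and Cxcl10. These sizes are fitted differences, also for genes that were under background in one group. As counted below, more falls than rises reached background, so whether the rises were larger than the falls is not settled. The median difference over all genes was 0.12 log2 units, 0.03 under quantile scaling within each fraction and -0.13 with dim genes left out, so its sign is not settled. In 203 of the genes that rose both unstimulated arrays were under background and the 270 min level was not, and in 763 of those that fell both 270 min arrays were under it and the unstimulated level was not. Both groups were under background for 8035 genes (40.3%), of which 574 were called higher and 63 lower, and no change is given for those by name. The arrays of the 2 groups did not overlap for 2157 of the genes called higher and 3377 of those called lower. Over all 19938 genes, called or not, 8055 were higher and 5507 lower without overlap. A lack of overlap, here and for genes named below, is therefore common and is a description only. Single arrays moved these counts. Dropping the 270 min array of experiment 1 gave 1295 rises and 2256 falls, and dropping that of experiment 2 gave 1289 and 2202. Dropping the unstimulated array of experiment 1 gave 3232 rises and 4304 falls, and dropping that of experiment 2 gave 1597 and 2659. The p-values rest on the spread left after the group means and the shift between the 2 experiments were fitted, pooled over all arrays of the study. The nascent and total arrays of a culture entered that fit as if independent. In cultures a change in the share of cells that make a transcript cannot be told apart from a change in the amount each cell makes.

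**Figure D1:**
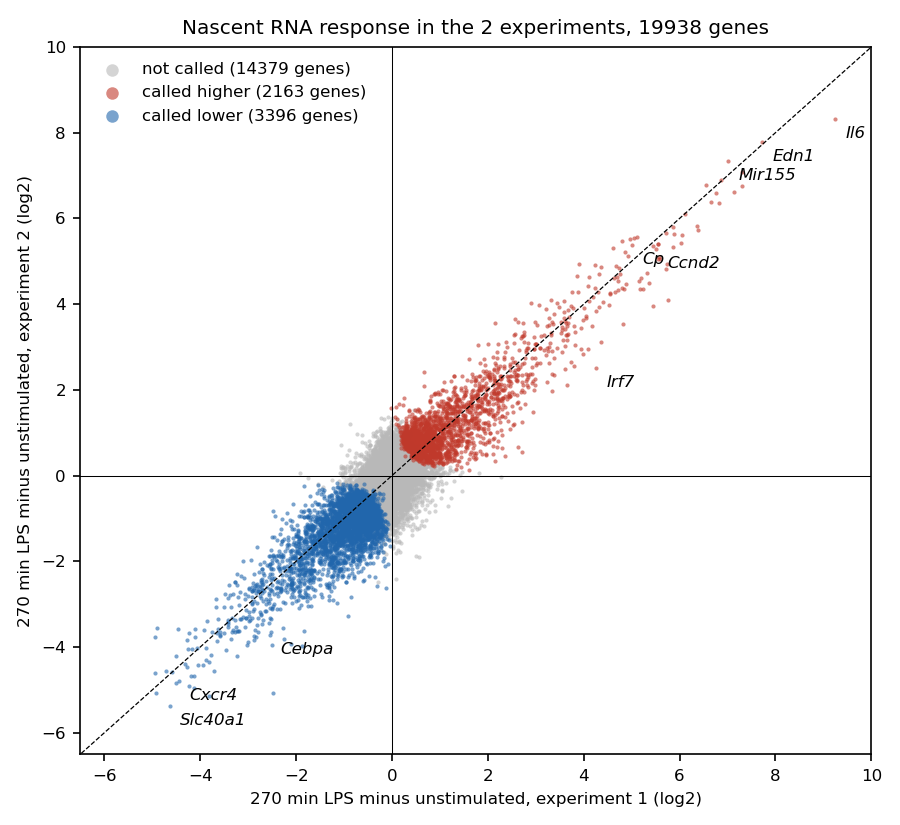
Difference between 270 min of LPS and unstimulated nascent RNA (log2) in experiment 1 (horizontal) and experiment 2 (vertical), 1 point per gene, with genes called higher in red, called lower in blue and not called in grey, and the dashed line where both are equal. Of the 5559 called genes, 1 had opposite signs in the 2 experiments.

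The 2 experiments gave like values. Across all 19938 genes the differences of experiment 1 and experiment 2 had r = 0.86 and the same sign for 77.8% of genes, a description across genes, which are not independent replicates. Il6 was higher by 9.25 log2 units in experiment 1 and by 8.32 in experiment 2. Some genes differed more between experiments, as the unstimulated level did for Slc40a1, Irf7 and Cebpa in what follows.

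The genes with the largest fitted rises are given first, and their order is not settled where unstimulated arrays were under background. Il6 encodes a cytokine of fever and the acute phase. Its level was 3.67 and 4.72 on the unstimulated arrays and 12.93 and 13.04 on the 270 min arrays, a difference of 8.79 ± 0.24 (limma, adjusted p = 3.23e-12) and at least 102-fold. Edn1, which encodes the vasoconstrictor peptide endothelin-1, went from 5.81 and 5.46 to 13.53 and 13.24, at least 136-fold (7.75 ± 0.23, limma adjusted p = 4.69e-12). In both genes the unstimulated arrays lay under background and the 270 min arrays were close together. Cxcl10, a chemokine that draws activated T cells, was at 5.97 and 6.52 before and at 13.27 on both arrays after (7.02 ± 0.19, limma adjusted p = 3.23e-12). Mir155 stood at 5.75 on both unstimulated arrays and at 12.76 and 13.08 at 270 min, at least 98.2-fold higher. The guanylate binding GTPases Gbp5 and Gbp4, which act against bacteria inside the cell, rose at least 75.8-fold and at least 78.2-fold. Cd69, an early activation antigen of the cell surface, rose at least 66.5-fold, and Iigp1, an immunity-related GTPase, at least 49.5-fold. The rest of the 15 largest rises were Il1a (6.67 ± 0.29) and Il1b (6.11 ± 0.21), the interleukin-1 cytokines, Ptgs2 (6.52 ± 0.17), the inducible cyclooxygenase of prostaglandin synthesis, the Ifi200 family members Ifi205 (at least 42.5-fold) and Ifi214 (at least 26-fold), AW112010 (at least 74.4-fold) and the membrane protein gene Ms4a4c (5.84 ± 0.25). For all 15 the 270 min arrays were above both unstimulated arrays.

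The 15 largest fitted falls were in genes of several kinds. Slc40a1 encodes ferroportin, the iron exporter, and its level was 9.84 and 11.09 in unstimulated cells and 5.20 and 5.71 at 270 min, at least 13.5-fold lower (limma adjusted p = 3.94e-09). Its 2 unstimulated arrays were more than 1 unit apart, and both 270 min arrays were under background. Cd28, best known as a co-stimulatory receptor of T cells, fell from 10.76 and 10.86 to 5.85 and 5.78 (at least 17.2-fold). Cxcr4, the receptor for the chemokine Cxcl12, went from 13.19 and 13.35 to 8.75 and 8.56 (-4.62 ± 0.16, limma adjusted p = 2.39e-11) and stayed above background. Slc9a9, a sodium-proton exchanger of endosomes, was at least 14.8-fold lower, and Mtss1, an actin and membrane binding protein, at least 20.4-fold lower. Aph1c, a subunit of the gamma-secretase protease, fell by 4.63 ± 0.17, Rab7b, a small GTPase of endosomal transport, by 4.54 ± 0.23, and Nceh1, which releases cholesterol from its esters, by 4.44 ± 0.20. Cd300lb, an activating receptor, fell by 4.58 ± 0.30. Snx30, Rhov, Rnf144b, Fbxo32, Gcnt1 and Arhgap18 completed the 15 and ended under background, with lower bounds from 8.75-fold for Arhgap18 to 15.8-fold for Rnf144b.

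**Figure D2:**
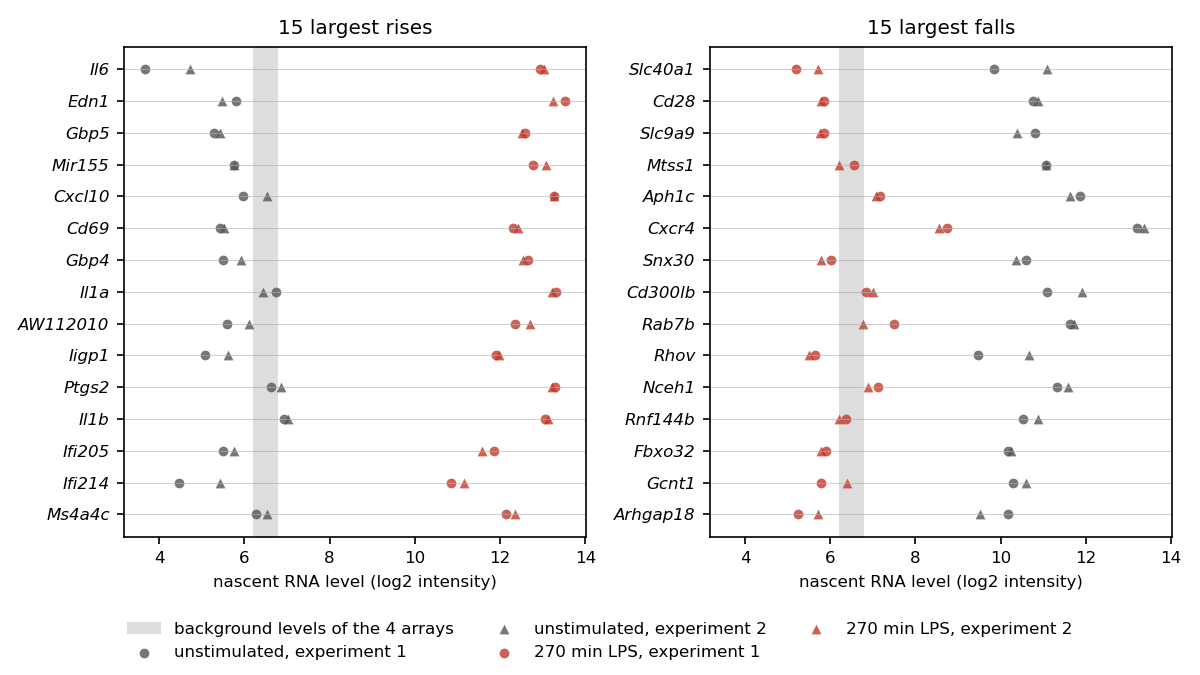
Nascent RNA level (log2 intensity) of the 15 genes with the largest rise (left) and the 15 with the largest fall (right) on each of the 4 arrays, with unstimulated arrays in grey, 270 min arrays in red, circles for experiment 1, triangles for experiment 2 and a grey band over the 4 arrays' background levels. Il6 rises from 3.67 and 4.72 to 12.93 and 13.04, and no gene's 2 groups overlap.

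Genes of antiviral defence rose together. All 32 measured antiviral effectors were higher, by 1.18 (Adar, an RNA editing enzyme) to 5.72 log2 units (Mx1), with a median of 3.13 against 0.12 over all genes, and all 32 were called whichever of the 4 arrays was left out. Mx1 was at 6.50 and 7.09 in unstimulated cells and at 12.53 and 12.51 at 270 min (5.72 ± 0.22, limma adjusted p = 5.13e-11). RefSeq lists mouse Mx1, named for a GTPase that blocks influenza viruses, as a transcribed pseudogene. Ifit1, which binds foreign RNA ends, went from 7.78 and 7.88 to 13.32 and 13.28, and Rsad2 (viperin) from 7.58 and 8.39 to 13.32 and 13.34. The 2 groups were far apart in each of these genes. Ifit2 rose by 5.33 ± 0.21 and Cmpk2, a mitochondrial nucleotide kinase, by 5.26 ± 0.24. The oligoadenylate synthetases Oas2 and Oas3, which start RNA degradation by RNase L, rose by 2.58 and 2.61, and Ifih1 and Ddx58, the cytosolic sensors MDA5 and RIG-I, rose by 3.85 and 3.36. All 8 interferon-inducible GTPases rose, with a median of 5.22, or 5.11 with members under background at their lower bound, and the smallest rise in Irgm1 (2.56). Gbp3 reached 12.55 and 12.37 from 6.50 and 6.74, and Gbp7 rose by 4.60 ± 0.19. Related GTPases and Ifi200 genes have similar sequences, and probe sets may share signal between them.

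Families that hold both interferon-inducible and other members split. In the PARP and Schlafen families 13 of 19 genes rose, among them Slfn1 (4.76 ± 0.26), Slfn4 (4.41 ± 0.21), Slfn9 (2.93 ± 0.22) and the partners Dtx3l and Parp9 (2.85 ± 0.23 and 2.73 ± 0.21), while the DNA repair enzyme Parp1 fell by 1.16 and Parp6 by 0.68. Among 18 Ifi200 family members and nucleic acid sensors 12 rose, led after Ifi205 by the helicase Ddx60 (3.63 ± 0.18), Ifi203 (2.87 ± 0.20) and the peptidoglycan sensors Nod2 and Nod1 (2.83 ± 0.20 and 2.54 ± 0.21). The inflammasome genes Nlrp3 (2.47), Casp4 (2.27), Aim2 (2.18) and Casp1 (2.01) were higher, Pycard, their shared adaptor, was at 0.19 without a call, and Nlrc4 was at least 1.14-fold lower, a call lost without the unstimulated array of experiment 2 or either 270 min array. The TRIM ubiquitin ligases divided evenly, with 10 higher and 10 lower of 29. Trim30d rose at least 37-fold from 5.67 and 6.15 to 11.54 and 11.49, and Trim21, the cytosolic antibody receptor, rose by 3.41 ± 0.25. Trim30a (2.41 ± 0.16), Trim13 (2.25 ± 0.25) and Trim34a (2.20 ± 0.19) followed, while Trim37 (-1.53), Trim35 (-1.24) and Trim24 (-1.01) were lowest. The count of lower TRIM genes was 5 without the unstimulated array of experiment 2 or without either 270 min array, and 5 under quantile scaling.

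Of 16 measured genes of the MHC class I list, most of them for peptide loading and the immunoproteasome, 13 rose, with a median of 1.50. The class I heavy chains H2-K1, H2-D1, H2-Q7, H2-T22 and H2-T23 were not measured here. Tap1, a subunit of the peptide transporter, went from 7.0 and 7.95 to 10.80 and 10.51 (3.18 ± 0.30, limma adjusted p = 6.77e-07), and its partner Tap2 rose by 1.92 ± 0.21. Both 270 min levels of Tap1 were above both unstimulated ones, which were themselves almost 1 unit apart. The proteasome activators Psme2 and Psme1 rose by 2.32 ± 0.19 and 1.73 ± 0.21, and the immunoproteasome subunit Psmb8 by 2.22 ± 0.31. The chaperone Calr was at -0.68 and its call was lost without the unstimulated array of experiment 2 or either 270 min array. In the 13 class II genes the median was -0.23, or -0.09 under quantile scaling. H2-Aa, an alpha chain of class II, fell by 1.04 ± 0.19 and the cathepsin Ctss by 0.71 ± 0.12, the invariant chain Cd74 was at -0.29 and the master regulator Ciita at -0.45, both without a call. Of the other called class II genes, Rfxap (-0.65), H2-DMa (-0.63) and Rfx5 (0.76) lost their calls when single arrays were left out.

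Secreted cytokines and chemokines made up a second induced group. Of 31 interleukin and TNF family cytokines 20 rose, with a median of 2.83, or 1.92 with members under background at their lower bound. Il12a, the p35 chain of interleukin-12, rose at least 31.2-fold, from 6.08 and 5.77 to 11.20 and 11.34, and Il12b rose at least 34.3-fold. Tnfsf15 went from 7.16 and 7.44 to 12.72 and 12.50 (5.31 ± 0.19), and Tnfsf10 (TRAIL) rose at least 17-fold. Csf2 (at least 9.35-fold), Il18 (at least 10.3-fold), Tnf (4.52) and Csf1 (3.87) were also higher. The anti-inflammatory interleukin Il10 was under background in both groups, while the receptor antagonist Il1rn rose by 3.60. Of 24 chemokines 20 rose, with a median of 1.69, or 1.55 with such members at their bound. Cxcl3, which draws neutrophils, rose at least 41.1-fold, and Ccl2, which draws monocytes, at least 20.4-fold, from 5.78 and 5.84 to 10.94 and 10.37. Ccl5 went from 7.51 and 7.77 to 13.06 and 13.18 and Ccl4 from 7.36 and 7.84 to 12.07 and 12.38. Ccl6 fell by 2.36 and Cxcl14 at least 1.64-fold, the latter not called without the 270 min array of experiment 1. In the promoters of 16 of the chemokines that had a window, 4 held the NF-kB letters and 4 the IRF letters, and in those of 24 antiviral effectors 0 held the NF-kB letters and 11 the IRF letters.

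Signalling genes rose in part. Of 25 NF-kB subunits, IkB proteins and feedback regulators 18 rose, with a median of 1.24. Traf1, an adaptor of TNF receptors, went from 6.45 and 6.77 to 10.97 and 10.76 (4.25 ± 0.24), and the nuclear IkB protein Nfkbiz from 9.01 and 9.29 to 12.63 and 12.31 (3.32 ± 0.17). Nfkbie (2.87 ± 0.25), Nfkb2 (2.22 ± 0.18) and Tnip3 (2.05 ± 0.20) followed, Rela was at 0.37 without a call, and Map3k14, the kinase of the non-canonical pathway, fell by 1.42. Of 18 STAT, Janus kinase and SOCS genes 11 rose. The feedback inhibitors Cish and Socs3 rose by 3.83 ± 0.20 and 3.58 ± 0.19, Socs1 by 2.21 ± 0.29, and Jak2, a kinase of cytokine receptors, by 3.47 ± 0.16, while Socs6 fell by 1.70. Irf7 went from 7.20 and 8.69 to 11.46 and 11.20 (3.39 ± 0.32, limma adjusted p = 7.27e-07), so its unstimulated arrays differed by more than 1 unit and both lay below the 270 min arrays. Irf1 and Irf2 rose by 1.79 ± 0.21 and 1.31 ± 0.17, and Irf4 and the interferon gamma receptor chain Ifngr1 fell by 2.12 ± 0.21 and 1.05 ± 0.22. Interferon beta itself, Ifnb1, was under background in both groups, as were the chemokines Ccl8 and Cxcl5.

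Receptors for microbial products moved in both directions. Of 28 Toll-like receptors, adaptors and kinases 12 rose and 4 fell. Tlr3, the receptor for double-stranded RNA, went from 6.83 and 6.95 to 10.14 and 10.23, and Tlr1 from 7.39 and 7.94 to 10.72 and 10.85. Tlr13, which reads bacterial ribosomal RNA, moved the other way, from 11.47 and 12.10 to 8.64 and 8.61 (-3.16 ± 0.22). In all 3 the groups were clearly apart. The LPS receptor Tlr4 fell by 1.37, its partner Ly96 and the adaptor Myd88 rose by 0.91 and 1.05, Cd14 rose by 1.47, and the adaptors Ticam1 and Ticam2 were at 0.22 and 0.05 without a call. Irak3, a brake on the pathway, rose by 1.87 ± 0.18. Of 24 co-stimulatory and activation surface molecules 16 rose, with a median of 1.80, or 1.55 with members under background at their lower bound. Cd40 went from 7.12 and 6.83 to 12.56 and 12.18 (5.40 ± 0.19), Icosl rose by 3.82 ± 0.24, Il15ra by 3.18 ± 0.17 and the adhesion molecule Vcam1 at least 9.78-fold, while the inhibitory receptor Vsir fell by 1.69 and Cd80 was at 0.26 without a call.

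Of 28 AP-1, Atf, Egr and other immediate early transcription factors 8 were higher and 4 lower at 270 min, with a median of 0.13 against 0.12 over all genes. Under quantile scaling 12 were higher, and the medians were 0.44 and 0.03. Jun, a subunit of AP-1, was at 12.07 and 12.17 in unstimulated cells and at 9.04 and 8.21 at 270 min (-3.49 ± 0.21, limma adjusted p = 7.11e-09). Nr4a3, an orphan nuclear receptor, rose at least 5.23-fold, and Batf2, Batf and Myc rose by 2.86 ± 0.18, 1.58 ± 0.23 and 1.54 ± 0.22. Egr1 was at 6.49 and 6.82 before and at 6.60 and 6.56 after (-0.07 ± 0.23), and Fos at 6.99 and 7.71 before and 7.10 and 7.09 after (-0.26 ± 0.26), so their groups overlapped. Without the unstimulated array of experiment 1, the list's counts were 5 higher and 7 lower. Among MAP kinases and their phosphatases 5 of 26 rose and 7 fell, with Dusp16 (2.37 ± 0.20), Mapkapk2 (1.87 ± 0.20) and Dusp2 (1.85 ± 0.30) higher and Dusp3 (-3.19 ± 0.23) and Dusp22 (-1.27 ± 0.19) lower. The counts were 5 and 13 without the unstimulated array of experiment 1, and 3 and 6 without the 270 min array of experiment 1.

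Nos2, the inducible nitric oxide synthase, went from 6.36 and 5.88 to 11.29 and 11.01 (5.03 ± 0.18), at least 28.7-fold. Acod1, which makes itaconate, went from 8.70 and 8.16 to 13.50 and 13.63 (5.13 ± 0.23), Slc7a2, an arginine transporter, rose by 3.09 ± 0.18, and Gch1, which supplies the nitric oxide synthase cofactor, by 2.03 ± 0.21. In total 7 of 16 nitric oxide, arginine, tryptophan and itaconate genes rose. Prostaglandin and leukotriene genes moved apart: Ptgs2 went from 6.62 and 6.85 to 13.28 and 13.23, the phospholipase Pla2g4a and the synthase Ptges rose by 1.97 and 1.81, and Lta4h (at least 2.7-fold), the thromboxane synthase Tbxas1 (-2.77 ± 0.26), Alox5ap (-2.0) and Hpgds (-2.13 ± 0.22) fell. Of 22 growth factors and secreted regulators 7 rose and 9 fell. Inhba, which encodes activin A, went from 6.45 and 6.42 to 12.02 and 11.50 (5.33 ± 0.22), and Igf1 from 12.03 and 11.70 to 9.69 and 9.19 (-2.43 ± 0.16), with no overlap in either gene. Hgf (-1.54), Pdgfc (-1.68) and Vegfa (-1.27) were lower.

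**Figure D3:**
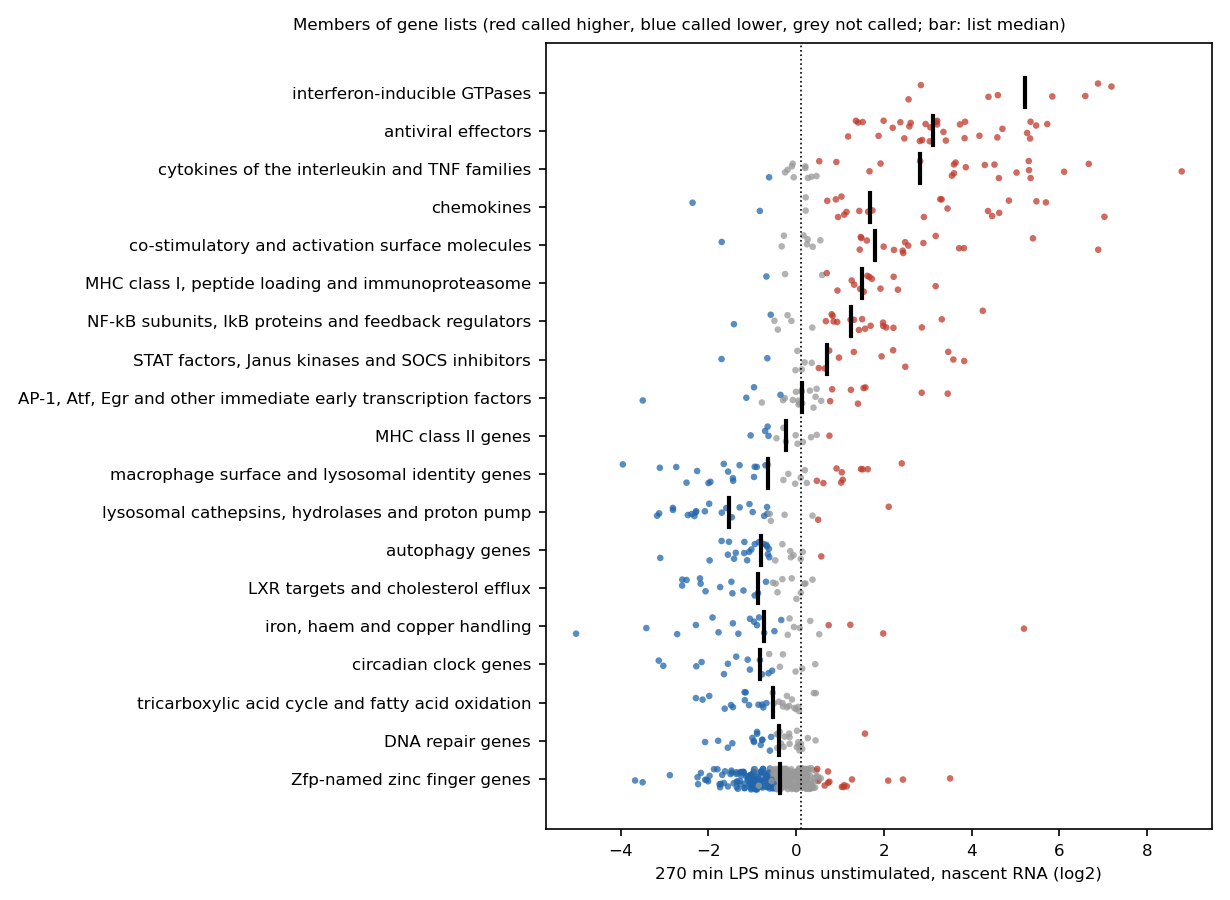
Difference between 270 min of LPS and unstimulated nascent RNA (log2) of each member of 19 gene lists, with red points called higher, blue called lower and grey not called, black bars at the list medians and a dotted line at the median of all genes, 0.12 (-0.13 with dim genes left out). All 32 antiviral effectors lie on the right, while the lysosomal list has its median at -1.53.

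Lysosomal genes were the most uniformly lower of the lists made of resting macrophage functions. Of 26 cathepsins, hydrolases and proton pump subunits 20 fell and 2 rose (Ctsc 2.11 and Lamp2 0.50, the second of which needed for its call the unstimulated array of experiment 2 and both 270 min arrays), with a median of -1.53, and 18 to 21 fell when single arrays were left out. Ctsk, a collagen-degrading cathepsin, went from 11.08 and 10.94 to 8.12 and 7.57 (-3.17 ± 0.19, limma adjusted p = 5.65e-09). Ctsd, an aspartic protease, went from 13.38 and 13.67 to 11.07 and 11.05 (-2.47 ± 0.14, limma adjusted p = 2.36e-09). The groups of both genes were well apart and all 4 levels were above background. Atp6v0d2 and Atp6v1a, subunits of the proton pump that acidifies lysosomes, fell by 3.12 ± 0.16 and 2.80 ± 0.17, and the protease Lgmn by 2.81 ± 0.14. The glycoside hydrolases Gusb, Hexa and Gla fell by 2.38, 2.28 and 1.98. Of 28 autophagy genes 20 fell and 1 rose (Atg16l1, 0.57, whose call needed the unstimulated array of experiment 1 and both 270 min arrays), with a median of -0.80. Gabarapl1 fell by 3.09 ± 0.28, Atg7, the activating enzyme of both conjugation steps, by 1.97 ± 0.18, and Map1lc3b by 1.70 ± 0.24, while Becn1 was at -0.13 without a call. Tfeb, a transcription factor of lysosomal genes, fell by 1.68 and Mitf was at 0.13 without a call.

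Iron and lipid handling also fell. Of 25 iron, haem and copper genes 15 fell and 4 rose, with a median of -0.73, or -0.49 with members under background at their lower bound. Tfrc, the transferrin receptor that brings iron in, went from 11.04 and 11.55 to 7.84 and 7.93 (-3.41 ± 0.16), beside the exporter Slc40a1 described above. Steap3, a ferric reductase of endosomes, fell by 2.71 ± 0.23, and Hmox1, the haem-degrading oxygenase, by 2.28 ± 0.24. Cp, the ferroxidase ceruloplasmin, moved the other way, from 5.92 and 5.86 to 10.92 and 11.23, at least 27.4-fold, and the metal importer Slc39a14 rose by 1.99. Of 23 LXR target and cholesterol efflux genes 13 fell, with a median of -0.87, or -0.69 with such members at their bound and -0.54 under quantile scaling. The nuclear receptor Pparg (-2.60 ± 0.20), Npc1 and the acid lipase Lipa, which free cholesterol in lysosomes (-2.59 ± 0.16 and -2.50 ± 0.16), Pltp (-2.19 ± 0.17) and the cholesterol exporter Abca1 (-2.06) were among them, and the receptor gene Nr1h3 was at -0.42 without a call. Sterol synthesis genes were not lower as a list: 8 of 23 rose and 4 fell. Ch25h, which makes 25-hydroxycholesterol, went from 6.05 and 6.29 to 10.37 and 10.99 (4.51 ± 0.29), and Idi1 and Cyp51 rose by 2.59 ± 0.22 and 1.48 ± 0.22. That list's count of higher genes was 5 without the unstimulated array of experiment 1 and 4 without the 270 min array of experiment 1, and its lower count of 4 was 2 without that of experiment 2 or without the replicate block.

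Macrophage surface genes and the transcription factors of the lineage changed in both directions. Of 33 macrophage identity genes 16 fell and 10 rose, with a median of -0.64. Under quantile scaling the median was -0.28. Mrc1, the mannose receptor, went from 11.26 and 10.62 to 7.03 and 6.95 (-3.95 ± 0.18, limma adjusted p = 3.12e-10). Cd36, a scavenger receptor, was at 10.54 and 11.54 before and at 7.36 and 8.51 after (-3.10 ± 0.16), higher in experiment 2 in both groups. Trem2, a lipid receptor, fell by 2.73 ± 0.36 and Lgals3 by 2.50 ± 0.15. Axl, a receptor for dying cells, rose by 2.41 ± 0.18, and Marco and Itgax rose by 1.63 and 1.52. Cebpa, a transcription factor of myeloid cells, was at 9.69 and 11.08 before and at 7.14 and 7.36 after (-3.14 ± 0.28, limma adjusted p = 3.75e-07). Fli1 fell by 2.37 ± 0.16, Bach1 by 1.99 and Runx1 by 1.60. Gfi1 rose at least 6.06-fold, Tfec by 2.59 ± 0.22, Ikzf1 by 2.28 ± 0.18 and Spi1, which encodes PU.1, by 1.07, so that 8 of the 30 factors rose and 8 fell.

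Surface receptors of other families showed the same mixture. Of 30 C-type lectin, Siglec and paired receptors 11 fell and 5 rose, and the count of rises was larger without the unstimulated array of experiment 1. The largest difference was the fall of Cd300lb described above (-4.58). Pilra, an inhibitory receptor, rose from 6.73 and 6.17 to 10.12 and 9.94. Cd200r1, the receptor for the inhibitory ligand Cd200, fell from 11.09 and 10.73 to 7.46 and 7.38. Cd200 itself rose by 2.44. Of 36 G protein coupled receptors 11 rose and 11 fell. The nicotinate and ketone receptor Hcar2 rose at least 9.09-fold and the fatty acid receptor Gpr84 by 3.51 ± 0.27. The cannabinoid receptor Cnr2 was at least 4.37-fold lower, and the sphingosine receptor S1pr1 and Lpar6 fell by 2.52 and 2.45. Of 27 integrin and adhesion genes 12 rose and 9 fell, with Marcksl1 (3.69 ± 0.23), Itgal (3.04 ± 0.18) and Itga1 (at least 6.43-fold) higher and Itgb5 (-2.36 ± 0.20), Cotl1 (-2.33) and Itgb2 (-1.92) lower. In the RGS and small GTPase regulator list 8 of 31 rose and 8 fell. Rab11fip1 rose most (3.46 ± 0.20). The largest falls were those of Rab7b (-4.54 ± 0.23) and Rhov (at least 10.2-fold), described above, and Arhgap25 (-2.35 ± 0.22) and Rgs2 (-2.18 ± 0.20) also fell.

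Of 19 circadian clock genes 13 fell, with a median of -0.82, or -0.75 with members under background at their lower bound. Bhlhe40 and Bhlhe41, repressors in the clock, went from 11.69 and 11.47 to 8.71 and 8.19 and from 12.03 and 11.73 to 9.14 and 8.57. The 2 groups did not overlap in either gene. Dbp was at least 4.47-fold lower, Per1 fell by 2.15 ± 0.22 and Rora by 1.64 ± 0.17, while Arntl and Clock were at -0.30 and -0.01 without a call. The list's lower count was 8 without the 270 min array of experiment 1. Of 19 p53 pathway genes 7 fell and 3 rose, with Sesn1 at -3.44 ± 0.23, Trp53inp1 at -2.95 ± 0.18 and Gadd45a at -1.55 ± 0.17. Their counts were 11 lower and 2 higher without the unstimulated array of experiment 1, and 7 and 1 without the 270 min array of experiment 1, while 5 rose without the unstimulated array of experiment 2. Mdm2, the p53 inhibitor, was at -0.09 without a call.

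Energy metabolism was lower in part. Over all genes 17% fell and 10.8% rose, and with dim genes left out 3556 of 12175 fell. In that fit 15 of 29 tricarboxylic acid cycle and fatty acid oxidation genes fell, more than that share. For glycolysis and HIF genes (8 of 25) and oxidative phosphorylation genes (8 of 35) the counts were near it. Of 29 tricarboxylic acid cycle and fatty acid oxidation genes 14 fell, with a median of -0.53 (-0.31 under quantile scaling), and 10 to 17 fell when single arrays were left out. Hadh was at least 2.58-fold and Suclg2 at least 2.11-fold lower, and Idh1, the cytosolic isocitrate dehydrogenase, went from 11.71 and 12.18 to 9.98 and 9.96 (-1.98 ± 0.17). Of 26 glycolysis and HIF pathway genes 7 fell and 3 rose: the pyruvate kinase Pkm fell by 1.77 ± 0.17, Ldha by 1.25 and Pgam1 by 1.30, and Slc2a6 and Pfkp rose by 2.13 ± 0.26 and 1.05. The lower count was 13 without the unstimulated array of experiment 1 and 4 without the 270 min array of experiment 2, and the higher count 5 without the unstimulated array of experiment 2. In the 35 nuclear oxidative phosphorylation genes 8 fell and 2 rose, counts that ran from 0 to 17 lower and from 1 to 4 higher as single arrays were left out, with 5 lower without the replicate block, and the cytochrome c gene Cycs rose by 1.95 ± 0.27. Of 24 antioxidant and Nrf2 pathway genes 11 fell and 3 rose, 7 and 2 without the 270 min array of experiment 2, and 5 rose without the unstimulated array of experiment 2 or under quantile scaling. The cystine importer Slc7a11 went from 8.60 and 8.45 to 12.28 and 12.14 (3.69 ± 0.18), Sod2, the mitochondrial superoxide dismutase, rose by 2.17 ± 0.13, and Gstm1, Gpx1 and Mgst1 fell by 2.18 ± 0.25, 2.15 ± 0.28 and 2.05 ± 0.20.

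Cell cycle genes changed singly. Ccnd2, a D-type cyclin, went from 6.52 and 6.53 to 12.04 and 11.82 (5.40 ± 0.20, limma adjusted p = 3.15e-11), while Ccnd1 and Ccnd3 were at 0.18 and -0.08 without a call. Rbl1, a pocket protein that restrains E2F, rose by 3.13 ± 0.18 and Rb1, Rbl2 and the kinase Cdk4 fell by 1.57, 1.26 and 2.30 ± 0.25. Mki67, the antigen used to mark dividing cells, rose at least 9.69-fold, from 6.18 and 6.04 to 9.84 and 9.32. Of the 36 replication and mitosis genes it belongs to, 4 rose and 10 fell, with Pola1 at least 1.77-fold lower, while Aurkb (-0.04) had no call. The lower count was 6 without the unstimulated array of experiment 2 and 5 without the 270 min array of experiment 1. Of 34 DNA repair genes 14 fell and 1 rose, the DNA damage kinase Atm (1.57 ± 0.19), with Ercc6 at -2.07 ± 0.19, and 9 fell without the unstimulated array of experiment 2.

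Zinc finger genes were lower in number. Of 347 genes named Zfp 125 fell and 14 rose, with a median of -0.37. Under quantile scaling 23 rose and the median was -0.22, and with members under background at their lower bound it was -0.25. In the fit as reported 74 fell without the 270 min array of experiment 2, while 23 rose without the unstimulated array of experiment 1 and 8 without the 270 min array of experiment 1. Zfp36l1, which is an RNA decay factor and no DNA-binding zinc finger, went from 9.94 and 9.93 to 6.28 and 6.25, at least 9.36-fold. Zfp791 (at least 4.56-fold) and Zfp709 (-2.88 ± 0.26) were lower and Zfp558 (3.51 ± 0.22) higher. Of the RNA decay regulators themselves, Dcp2, a decapping enzyme, and Zc3h12c rose by 2.49 ± 0.18 and 2.46 ± 0.19, Zc3h12d fell by 2.22 ± 0.28, and Zfp36, which encodes tristetraprolin, rose by 0.73. Of 364 solute carriers 85 fell and 37 rose. Slc37a2 (-3.76 ± 0.26) and Slc43a2 (-3.46 ± 0.20) fell, beside Slc40a1 and Slc9a9. The count of higher solute carriers was 56 without the unstimulated array of experiment 1 and 21 without either 270 min array.

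MicroRNA gene entries were called 50 times among 300, 39 higher and 11 lower, but for 13 of the 50 both groups were under background, which leaves 27 higher and 10 lower. The higher count of 39 was 81 without the unstimulated array of experiment 1, 19 without that of experiment 2, 25 without the 270 min array of experiment 1 and 19 without that of experiment 2, and 24 without the replicate block. Mir222 went from 8.66 and 7.84 to 11.73 and 11.83 (3.53 ± 0.24), and Mir221, which carries the same seed, from 9.79 and 9.39 to 12.42 and 12.96 (3.10 ± 0.21). Mir146, a microRNA known to target Irak1 and Traf6, went from 7.39 and 7.14 to 10.39 and 10.20 (3.04 ± 0.22). All 3 and Mir155 had no overlap between groups. Mir674, Mirlet7e and Mir125a rose by 2.16 ± 0.18, 1.84 ± 0.26 and 1.49 ± 0.21, and the last pair lie next to each other on chromosome 17. Mir687 went from 8.82 and 8.28 to 6.52 and 6.75, at least 3.58-fold lower. Mir1839 was also called lower, but its unstimulated mean was too near background for a fold. Mir23a, Mir27a and Mir24-2, neighbours on chromosome 8, fell by 1.38 ± 0.18, 1.44 ± 0.18 and 1.08 ± 0.20. A microRNA entry that lies in an intron or a longer transcript may read its host, which was not tested.

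Total RNA of the same cultures was used to ask where the change in synthesis differed from the change in the RNA pool. In total RNA at 270 min 1710 genes (8.58%) were higher and 3000 (15%) lower. Of the genes called in nascent RNA, 3658 were called with the same sign in total RNA, which is 65.8% of the nascent and 77.7% of the total calls. Another 875 were called higher in nascent RNA alone and 1023 lower in nascent RNA alone, and 3 had opposite signs, Gatm (0.74 nascent, -0.58 total), Ppih (0.60, -0.58) and Polr2c (-0.71, 0.66). A call in one fraction and not in the other does not show a difference, so the difference itself was tested, as the nascent minus the total level of each culture at 270 min against unstimulated. That response difference was called higher for 24 genes (0.12%) and lower for 144 (0.722%) by limma. Leaving out single arrays gave 17 to 280 higher and 84 to 838 lower.

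Falls that were deeper in nascent than in total RNA formed most of the 144: 98 fell in both and 28 fell in nascent RNA without a call in total RNA. Mrc1 fell by 3.95 in nascent and by 0.80 in total RNA, a response difference of -3.15. Slc9a9 was at -4.78 and -1.57, Tfrc at -3.41 and -0.92, Ctsk at -3.17 and -0.75, and Cd36 at -3.10 and -0.71. Pmp22 (-3.31 and -0.85) and Mfge8 (-2.99 and -0.63) were like them. Slc9a9 and Bex1 were under background in nascent RNA at 270 min. Bex1 was at least 3.76-fold lower there, against -1.42 in total RNA, so the size of its response difference is not settled. Ctsd (-2.47 and -0.37), Vim (-1.49 and -0.01), Psap (-1.55 and -0.21), Lgals1 (-2.20 and -0.55) and Mmp12 (-1.18 and -0.04) were lower in nascent RNA with no call in total RNA. In the lysosomal list 12 of 26 members had a called response difference, all lower, and the list's median was -1.53 in nascent and -0.57 in total RNA. In the autophagy list 0 of 28 members had a response difference called by limma and 2 had an unadjusted p below 0.05. Over all 19938 genes 24 and 144 were called and 1411 had an unadjusted limma p below 0.05. The autophagy counts are thus near the shares of all genes. The median response difference was -0.13 in the autophagy list, -0.78 in the lysosomal list and 0.03 over all genes. In 15 genes both rises were called and the nascent one was smaller. Cxcl2 rose by 4.37 in nascent and 5.77 in total RNA, a response difference that was not called under quantile scaling. The NF-kB inhibitor Tnfaip3 rose by 1.98 and 3.16, a response difference that was not called when the 270 min culture of experiment 1 was dropped. Most of the 15 have no settled size of the nascent rise. The unstimulated nascent arrays were under background for Adamts4, Car4, Cav1, Ccl12, Fscn1, Il23a, Lcn2, Timp1 and U90926. Cxcl5 was under it in both nascent groups.

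Of the 24 genes with a higher response in nascent RNA, 10 were called higher in both fractions. Among these Tex12 was under background in both groups of both fractions. Unstimulated arrays were under it for BC147527, Fap, Heatr9 and Ifi208 in both fractions and for AW112010 in nascent RNA. The response differences of these genes have no settled size. AW112010 rose by 6.67 in nascent and 4.60 in total RNA, Ms4a4c by 5.84 and 3.78, Ccl5 by 5.48 and 3.50, and the acute phase gene Saa3 by 4.26 and 2.52. Another 11 were called higher in nascent RNA only. Among them Xlr was under background in both groups of both fractions, and Rpa3 in unstimulated nascent RNA. Cd72, an inhibitory receptor, was at 8.26 and 9.04 before and 10.22 and 10.56 after in nascent RNA (1.74 ± 0.20), with a total RNA difference of -0.49, and Ly6e was at 1.79 and 0.06. Adgre1, a macrophage surface antigen gene, was at 1.48 in nascent and 0.40 in total RNA, and the actin-binding thymosin gene Tmsb4x at 1.23 and 0.09. Bin2 and Chek2 fell in both fractions to levels under background, so neither response difference has a settled size. The antiviral effectors had medians of 3.13 in nascent and 2.80 in total RNA. It is not stated whether the authors scaled both fractions together. The input was 200 ng for total RNA arrays and 100 ng for nascent arrays, and each fold is relative to its own fraction.

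**Figure D4:**
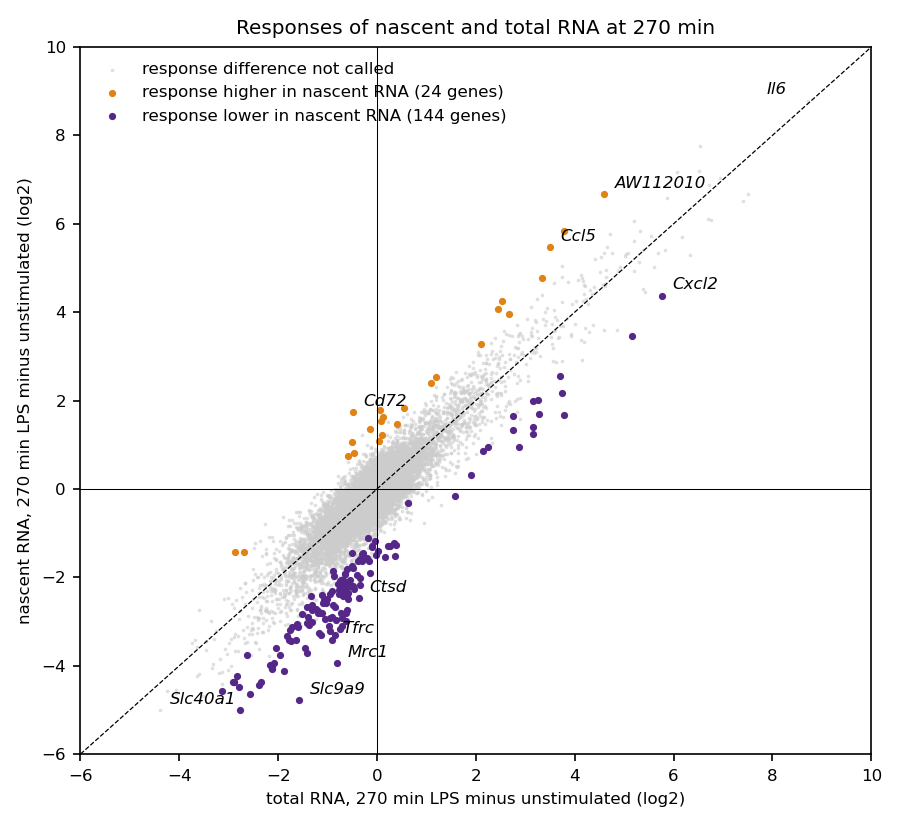
Difference between 270 min of LPS and unstimulated (log2) in total RNA (horizontal) and nascent RNA (vertical), 1 point per gene, with the 24 genes whose response was called higher in nascent RNA in orange, the 144 called lower in purple, the others in grey, and the dashed line where both are equal. Mrc1, Slc9a9 and Ctsd lie below the line and Cd72, Ccl5 and AW112010 above it.

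Nascent RNA at 45 min places each change in time. At 45 min 844 genes (4.23%) were higher and 1838 (9.22%) lower than unstimulated, and at 270 min against 45 min 1716 (8.61%) were higher and 2398 (12%) lower. These comparisons share arrays with the one described, so values are given side by side. For genes under background at 0, 45 or 270 min they are fitted differences and not measured sizes. Antiviral effectors were late: 5 of 32 were higher at 45 min, and all 32 were higher at 270 than at 45 min. Mx1 was at -0.53 at 45 min against unstimulated and higher by 6.26 at 270 against 45 min. Gbp4 (0.43 and 6.45), Iigp1 (0.11 and 6.47), Nos2 (-0.03 and 5.06), Il12a (0.32 and 5.02) and Ccnd2 (0.33 and 5.08) had the same order, and Il6 (2.77 and 6.01) and Edn1 (1.38 and 6.37) rose at both steps. Cxcl10 (5.60 and 1.42), Il1b (5.43 and 0.68) and Gbp5 (5.36 and 1.83) had gained most by 45 min. Ccl2 (6.01 and -1.16) and Mki67 (4.49 and -1.02) were below their 45 min level at 270 min, and Socs3 was at 4.04 and then -0.45.

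Of the 28 immediate early genes 20 were higher at 45 min, and 17 were lower and 2 higher at 270 than at 45 min. The 2 were Nr4a3 (1.70 at 45 min and 1.76 from there) and Batf2 (0.64 and 2.22). Egr1 was higher by 5.61 at 45 min and moved by -5.69 from there to 270 min, and Fos moved by 4.09 and -4.35. Jun (0.54 and -4.03), Per1 (1.09 and -3.24) and Hexim1, a brake on transcription elongation (1.24 and -2.31), ended below their unstimulated level. H2-Aa was at 1.76 and then -2.79. The lysosomal list had 6 of 26 members lower at 45 min and 22 lower at 270 against 45 min, and the autophagy list had 19 of 28 lower at 270 against 45 min. Mrc1 (0.38 and -4.33), Cd28 (-0.08 and -4.92), Slc9a9 (-0.24 and -4.54) and Dio2, a thyroid hormone deiodinase (0.39 and -4.74), fell after 45 min. Cxcr4 (-0.73 and -3.89), Slc40a1 (-1.78 and -3.23) and Cebpa (-1.56 and -1.58) fell in both intervals. The Zfp genes differed, with 124 of 347 lower at 45 min and 39 lower at 270 against 45 min, and of 35 oxidative phosphorylation genes 16 were lower at 45 min and 8 higher at 270 against 45 min.

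**Figure D5:**
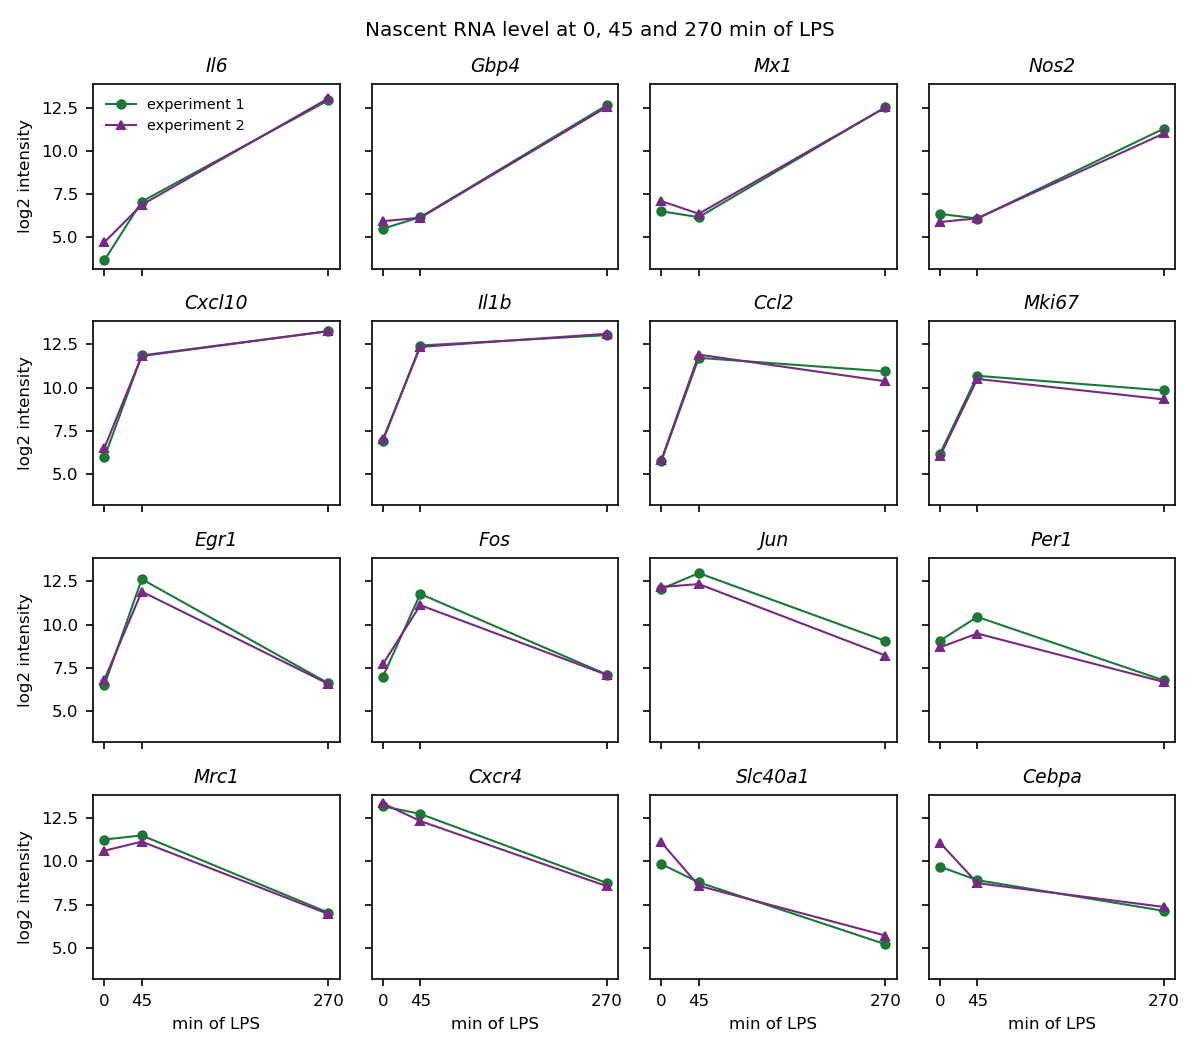
Nascent RNA level (log2 intensity) of 16 genes at 0, 45 and 270 min of LPS, with green circles for experiment 1 and purple triangles for experiment 2, lines joining the arrays of an experiment and 1 vertical scale for all panels. Gbp4, Mx1 and Nos2 rise after 45 min, Egr1 and Fos are high at 45 min alone, Mrc1 falls after 45 min, and Cxcr4 falls in both intervals.

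Marker genes were read on the same 4 arrays. All 8 macrophage markers were above background on every array, with a summed intensity of 22685.8 and 26060.9 unstimulated and 15480.2 and 13422.1 at 270 min. Within them Csf1r, the M-CSF receptor, fell by 1.55 ± 0.16, Cd68 by 1.95 ± 0.14, Mertk by 1.65 ± 0.19 and Lyz2 by 0.90 ± 0.12, and Adgre1 and Fcgr1 rose by 1.48 ± 0.15 and 1.06 ± 0.23. Of 16 neutrophil and granulocyte markers 0 were above background on all 4 arrays and 1 on any, and their sums were 816.4 and 781.9 before and 852.9 and 832.8 after. Mast cell markers, 2 of 14 on all arrays and 7 on any, summed to 683.5 and 819.8 before and 1039.9 and 1351.1 after, with Hdc at least 2.55-fold higher and Kit at 0.82 ± 0.19. B cell markers summed to 2131.1 and 1751.9 before and 1279.1 and 1382.9 after, where Blnk, the 1 of 11 that was above background on all arrays, fell by 1.02 ± 0.18. Of these 11 markers 2 were called higher, 1 of them with both groups under background, and the median difference was 0.30. For T and NK cells 1 of 13 markers was above background on all arrays, with sums of 593.5 and 574.9 before and 674.1 and 690.5 after. Dendritic cell markers (4 of 12 on all arrays) summed to 5511.6 and 7114.6 before and 4635.5 and 4559.3 after, with Cst3 at -1.12 ± 0.15 and the interferon-inducible Bst2 at 2.20 ± 0.19. Stromal markers (3 of 12) had Pdgfrb at least 9.27-fold higher and Fn1 at -1.58 ± 0.18, and summed to 2255.6 and 1527.5 before and 2011.3 and 1877.2 after. Endothelial markers (3 of 12) had 1 called lower, Vwf at -1.74 ± 0.18, and 2 called higher, with a median of 0.27. Both groups were under background for 1 of those 2. The endothelial sums were 1471.1 and 1646.0 before and 1714.8 and 1921.5 after, and erythroid markers (0 of 8) summed to 489.4 and 449.3 before and 532.5 and 554.0 after. The part of other cell types in the changes was not tested.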

How the data were processed

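The submitters' processing notes name RMA and Affymetrix Expression Console, without versions. The authors deposited linear intensities for 35557 probe sets of Affymetrix Mouse Gene ST 1.0 arrays, and log2 was taken of them here. Depth does not apply to arrays, and 2 arrays per group limit the precision. The notes do not state whether RMA was run on all arrays together. Scaling between arrays draws their distributions together, so a shift of all transcripts cannot be seen.

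Symbols came from the platform annotation: 21789 probe sets had 1 symbol, 1621 several and 12147 no entry. The probe set with the highest mean over 12 arrays was kept for each of 999 symbols with more than 1. The 21698 identifiers found in RefSeq's table changed 0 symbols. Sequences are RefSeq's, GRCm38.p6. No 2 arrays held identical values.

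limma 3.58.1 (lmFit and eBayes with an intensity trend) in R 4.3.3 fitted a mean per fraction and time and the experiment as a block to all 12 arrays, with 5 residual degrees of freedom, and Benjamini-Hochberg adjustment over 19938 genes at 0.05. The nascent against total response was fitted on 6 culture differences, with 3 residual degrees of freedom. The script was tested on simulated data. Python 3.11.15 with numpy 2.4.6, pandas 2.3.3 and matplotlib 3.10.9 made tables and figures. The labels call the 2 experiments independent, and the experiment number pairs the arrays. As a check, the deviations from group means were correlated between groups: 0.175 to 0.645 among the other 5 groups, and -0.295 to 0.025 between the unstimulated nascent group and the others.

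Members and 63 gene lists (3432 genes matched, 120 entries without a probe set) were chosen with earlier results of these data known, and no set test was run. Named genes are the 15 largest rises and 15 largest falls, called, of equal sign in each experiment, whose higher group averaged at least 6.64, the median of gene means; up to 5 called members per list with the largest differences, or the 2 with the highest level; and 8 per direction for the response difference and for 270 against 45 min. Other list members, genes with called response differences and microRNAs were named after their values were seen. Alternatives were no block, other block designs, fewer arrays, quantile scaling, a pseudocount of 20, no trend, dim genes left out, and each array left out in turn.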

Additional observations from a re-analysis of the deposited data

Results flagged for a closer look

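Responses that differed between nascent and total RNA by the test of the difference (limma, log2 units) numbered 24 higher and 144 lower. The genes named for it were AW112010 (2.07), Ms4a4c (2.06), Cd72 (2.24), Ccl5 (1.98), Ly6e (1.73), Saa3 (1.73), BC147527 (1.63) and Ebpl (1.57) on the higher side. BC147527 was not called under quantile scaling, in the fit of all 12 arrays or without the 270 min culture of experiment 1, and Ebpl not without that culture. On the lower side they were Slc9a9 (-3.21), Mrc1 (-3.15), Tfrc (-2.50), Pmp22 (-2.46), Ctsk (-2.42), Cd36 (-2.40), Mfge8 (-2.36) and Bex1 (-2.29). AW112010 and BC147527 in unstimulated nascent RNA, and Slc9a9 and Bex1 at 270 min, were under background, so their sizes are fitted values.

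Nascent RNA at 270 min differed from that at 45 min for 1716 genes higher and 2398 lower (limma). The named genes higher at 270 min were Ifi214 (6.72), Iigp1 (6.48), Gbp4 (6.45), Edn1 (6.37), Mx1 (6.26), AW112010 (6.08), Il6 (6.01) and Ms4a4c (5.42). Those lower were Egr1 (-5.69), Cd28 (-4.92), Dio2 (-4.74), Arhgap18 (-4.62), Slc9a9 (-4.54), Mtss1 (-4.40), Fos (-4.35) and Mrc1 (-4.33).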

How the results depend on the processing

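Of 327 genes named from the nascent 270 min comparison 323 were called, and 280 of them were called under every alternative run. Over 359 gene values and 4983 alternative values, 4829 kept direction and side of the threshold, 153 were no longer called, 1 became called and 0 reversed. Without the replicate block the counts were 1768 higher and 2827 lower, and 17 named genes lost their call. The numbers pair the arrays by the labels, and the unstimulated nascent arrays did not deviate with the others. The replicate block added to the response difference gave 112 higher and 379 lower in place of 24 and 144. Without the block the count lower at 45 min was 1172 in place of 1838. The 4 arrays alone gave 2723 genes higher at 270 than at 45 min in place of 1716. Quantile scaling gave 88 lower response differences over all arrays and 94 within each fraction. Leaving out single arrays gave 1289 to 3232 higher and 2202 to 4304 lower in nascent RNA at 270 min, 1111 to 1848 and 1828 to 2643 in total RNA, 1050 to 1150 and 1532 to 1914 for 270 against 45 min, 441 to 1601 and 476 to 3074 at 45 min, and 17 to 280 and 84 to 838 for the response difference. A group left with 1 array is assumed to vary like the others. The cause of these moves was not tested. Signal near background limits what can be read for the 40.3% of genes under it in both groups.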

Other observations

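Several gene groups not described above changed in a minority of members in nascent RNA at 270 min (limma, adjusted p below 0.05). Of 25 unfolded protein and integrated stress response genes 11 fell, with a median of -0.54. The sensors Ern1 (-2.20 ± 0.20), Eif2ak3 (-1.94 ± 0.23) and Atf6 (-1.22 ± 0.20), which start the response in the endoplasmic reticulum, and the factor Ddit3 (-1.38 ± 0.20) were lower, and the chaperone Hspa5 was at 0.07 without a call. The lower count was 7 without the replicate block or without the 270 min array of experiment 1, and 6 without that of experiment 2. Of 45 Mediator, TFIID and polymerase II genes 6 rose and 11 fell. Med21 rose from 7.23 and 7.55 to 9.57 and 10.31 (2.55 ± 0.17), and Polr2a, the largest polymerase II subunit, fell from 10.19 and 10.15 to 8.63 and 8.64 (-1.53 ± 0.18). Those counts were 10 and 16 without the unstimulated array of experiment 1, 6 and 7 without that of experiment 2, 5 and 6 without the 270 min array of experiment 1, and 4 and 4 without that of experiment 2, and 11 and 8 under quantile scaling.

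The genes named next are single members and do not describe their lists. Over all genes 10.8% were higher and 17% lower. Higher and lower were 5 and 4 of 21 apoptosis genes, 6 and 5 of 25 TGF-beta and BMP genes, and 2 and 5 of 19 tRNA synthetases. For ribosome biogenesis they were 3 and 10 of 35, and for histone modifiers 6 and 7 of 40. Proteasome subunits had 4 and 3 of 30, and heat shock genes 5 and 3 of 19. In the apoptosis list Mlkl, the effector of necroptosis, went from 7.04 and 7.19 to 10.70 and 10.69 (3.58 ± 0.23), and the caspase-8 inhibitor Cflar rose by 2.40 ± 0.16. In the TGF-beta and BMP list Skil (1.57 ± 0.15), Eng (1.42 ± 0.19) and Acvr1 (1.31 ± 0.19) rose and Tgfbr2 (-1.15 ± 0.17) and Smad3 (-1.14 ± 0.17) fell. The tRNA synthetase of tryptophan, Wars, rose by 1.80 ± 0.20, and Sars and Nars fell by 1.62 ± 0.28 and 0.91 ± 0.17. Among ribosome biogenesis genes Rrs1 rose by 2.17 ± 0.22 and Polr1a, the largest polymerase I subunit, fell by 1.71 ± 0.18. Of the histone modifiers Bmi1 rose by 1.41 ± 0.18 and Hdac5 fell by 1.45 ± 0.22. The proteasome subunits Psma6 and Psma5 rose by 1.60 ± 0.16 and 1.56 ± 0.20, and Psmd8 fell by 1.45 ± 0.18. The heat shock co-chaperone Stip1 rose by 1.60 ± 0.20, and Hspa1a was at 0.85 ± 0.19, a call that was lost without the 270 min array of experiment 2.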
